A study of Homo sapiens with 6 samples.

Results

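The epithelial-mesenchymal transition genes ZEB1, ZEB2, SNAI2, TWIST1, VIM, CDH1 and CDH2 were followed through 4 lists of chromatin immunoprecipitation sequencing (ChIP-seq) peaks, 2 from YAP and 2 from TAZ. Each gene was represented by a window from 20 kb before its span to 20 kb after it in the human genome build hg19, and every peak that overlapped the window was counted. The 7 windows measured 974 kb together. They held 115 and 101 of the 392120 and 353336 peaks in the YAP libraries, against 99 and 83 of the 333505 and 310657 peaks in the TAZ libraries, on chromosomes 1 to 22 and X. Merged wherever they overlapped by at least 1 bp, these peaks formed 136 regions, of 452943 regions in the whole lists.

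All libraries came from H1299, an established line of human non-small cell lung cancer cells, kept without serum for 18 hours. The study compared where YAP and TAZ sit on chromatin, with an antibody against YAP (2 libraries), an antibody against TAZ (2 libraries) and input DNA taken without an antibody (2 libraries). The labels of replicate 1 name Thermo Fisher Scientific for the YAP antibody and Proteintech for the TAZ antibody. The inputs entered only through the peak lists called against them, and the 4 antibody libraries share the same cell line, serum starvation and chromatin protocol. A single cell line was used, no library from cells lacking YAP or TAZ was analysed here, and peak lists hold no expression values, so neither the cell type nor the activity of the 7 genes could be checked from them.

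YAP and TAZ are related coactivators at the end of the Hippo pathway. They have no DNA-binding domain of their own and reach DNA mainly through the TEAD factors, often at enhancers that also hold AP-1. In an epithelial-mesenchymal transition, epithelial cells lose their junctions and become migratory. The transcription factors ZEB1, ZEB2, SNAI2 (Slug) and TWIST1 drive the change, the E-cadherin gene CDH1 is repressed through E-boxes in its promoter, and vimentin (VIM) and N-cadherin (CDH2) increase. In carcinomas, including those of the lung, the same programme accompanies invasion.

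Promoter sequences are shown for ZEB1, VIM and CDH2, members whose starts carried peaks of both TAZ libraries. The starts of TWIST1 and CDH1 also carried such peaks, but no promoter was available for these genes. For ZEB1 only the promoters with a motif named below are printed. CDH2 promoter 2 is a start further into the gene and not the one at the 5′ end of the span. RefSeq (GRCh38.p14) gave 11 promoters for 4 of the 7 genes, of 300 bases each, with 250 before the start and 50 after it: 7 for ZEB1, 2 for CDH2, and 1 each for ZEB2 and VIM. Capitals mark the motifs searched on both strands, which were the TEAD core GGAATG (reverse CATTCC), the ZEB and Snail E-box CAGGTG (reverse CACCTG) and the AP-1 site TGANTCA. The positions below count from the first base printed, and peaks could not be laid on these letters because the peaks are in hg19.
ZEB1 promoter 1 (chr10:31318167-31318466, plus strand): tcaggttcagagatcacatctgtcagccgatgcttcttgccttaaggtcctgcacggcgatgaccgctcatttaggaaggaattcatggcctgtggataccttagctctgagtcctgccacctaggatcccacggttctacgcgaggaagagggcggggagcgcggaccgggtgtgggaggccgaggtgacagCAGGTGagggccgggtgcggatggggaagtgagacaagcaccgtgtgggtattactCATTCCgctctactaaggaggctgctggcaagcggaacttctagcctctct
ZEB1 promoter 3 (chr10:31318966-31319265, plus strand): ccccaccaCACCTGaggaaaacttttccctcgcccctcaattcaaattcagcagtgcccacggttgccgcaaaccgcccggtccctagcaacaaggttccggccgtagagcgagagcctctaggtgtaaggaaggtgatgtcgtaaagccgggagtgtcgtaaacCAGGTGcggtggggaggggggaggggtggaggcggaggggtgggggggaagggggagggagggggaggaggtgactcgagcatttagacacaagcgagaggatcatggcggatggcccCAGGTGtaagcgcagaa
VIM promoter (chr10:17227991-17228290, plus strand): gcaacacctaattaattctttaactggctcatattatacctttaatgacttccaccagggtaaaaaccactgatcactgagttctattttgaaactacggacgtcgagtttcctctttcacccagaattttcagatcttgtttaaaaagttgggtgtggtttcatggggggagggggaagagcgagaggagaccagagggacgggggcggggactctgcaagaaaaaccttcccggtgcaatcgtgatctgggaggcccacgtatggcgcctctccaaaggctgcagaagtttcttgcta
CDH2 promoter 1 (chr18:28177081-28177380, minus strand): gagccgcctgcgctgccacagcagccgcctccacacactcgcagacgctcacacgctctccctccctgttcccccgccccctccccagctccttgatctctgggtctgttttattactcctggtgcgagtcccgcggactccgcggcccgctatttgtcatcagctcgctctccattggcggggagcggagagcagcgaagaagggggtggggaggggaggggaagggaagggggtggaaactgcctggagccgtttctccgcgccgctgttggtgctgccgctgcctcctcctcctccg
CDH2 promoter 2 (chr18:28036592-28036891, minus strand): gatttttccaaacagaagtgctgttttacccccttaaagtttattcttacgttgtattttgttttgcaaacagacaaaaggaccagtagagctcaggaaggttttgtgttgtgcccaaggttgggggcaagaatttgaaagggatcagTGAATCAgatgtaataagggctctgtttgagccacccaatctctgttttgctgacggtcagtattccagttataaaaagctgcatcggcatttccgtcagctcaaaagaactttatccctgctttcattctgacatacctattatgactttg

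The TEAD core stood in 1 of the 11 promoters, ZEB1 promoter 1, at bases 250 to 255, and 14.0% of the 35116 promoters in the table held it. The E-box stood in 2 of the 11, with a background of 20.6%: at bases 194 to 199 of ZEB1 promoter 1, and at bases 9 to 14, 166 to 171 and 284 to 289 of ZEB1 promoter 3. The AP-1 site stood in 1 of the 11, at bases 149 to 155 of CDH2 promoter 2, a start further into the gene, against 7.71% of all promoters. In the VIM promoter, CDH2 promoter 1, the ZEB2 promoter and the other 5 ZEB1 promoters none of these letters were found. No motifs overlapped each other.

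Across the 7 genes, 48 of 136 regions had peaks of all 4 libraries and 15 of 136 had a strong peak of any library, shares near those of the whole lists (39.2% and 13.4%). The window of the E-cadherin gene CDH1 was the most covered in every library, at 54.7% and 41.1% in the YAP libraries, against 38.8% and 36.0% in the TAZ libraries. ZEB2 held most of the peaks that ranked high by −log10 q, none of them within 2 kb of its start. At the starts of TWIST1 and VIM, peaks were present in both TAZ libraries and in neither YAP library, and none of these peaks was among the strong ones of its list. No difference between YAP and TAZ in covered share could pass a test, since 2 against 2 libraries allow no exact two-sided permutation p below 0.33.

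Taken as a single stretch, the 7 windows were covered by peaks over 14.5% and 10.4% of their bases in the YAP libraries, against 10.5% and 9.29% in the TAZ libraries. The group means were 12.5% ± 2.9 for YAP against 9.89% ± 0.84 for TAZ (SD, n = 2 libraries each), a difference of 2.60 percentage points with an exact two-sided permutation p of 0.667. YAP replicate 2 lay below TAZ replicate 1, so the groups overlapped. The ratio of the YAP to the TAZ mean was 1.26 in the windows and 1.16 over chromosomes 1 to 22 and X, where peaks covered 17.4% and 15.2% in the YAP libraries, against 13.7% and 14.4% in the TAZ libraries. In all 4 libraries the windows were thus less covered than the genome as a whole. The exact two-sided sign-flip p was 0.125, the smallest that 4 libraries allow. It measures only whether the libraries agree, over the same loci in a single cell line. The genome share is a mean over all bases. For each of the 7 genes, the median adjacent window of the same width lay below the chromosome's share in both antibodies. Against that median, the windows of CDH1 and VIM were more covered and the others less. Whether the 7 windows together were less covered than typical windows was not tested. Without YAP replicate 1 the difference between the YAP and TAZ means was 0.540 percentage points, and without YAP replicate 2 it was 4.66. The sequencing depth behind the lists is unknown, and each YAP list held more peaks than either TAZ list.

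**Figure D1:**
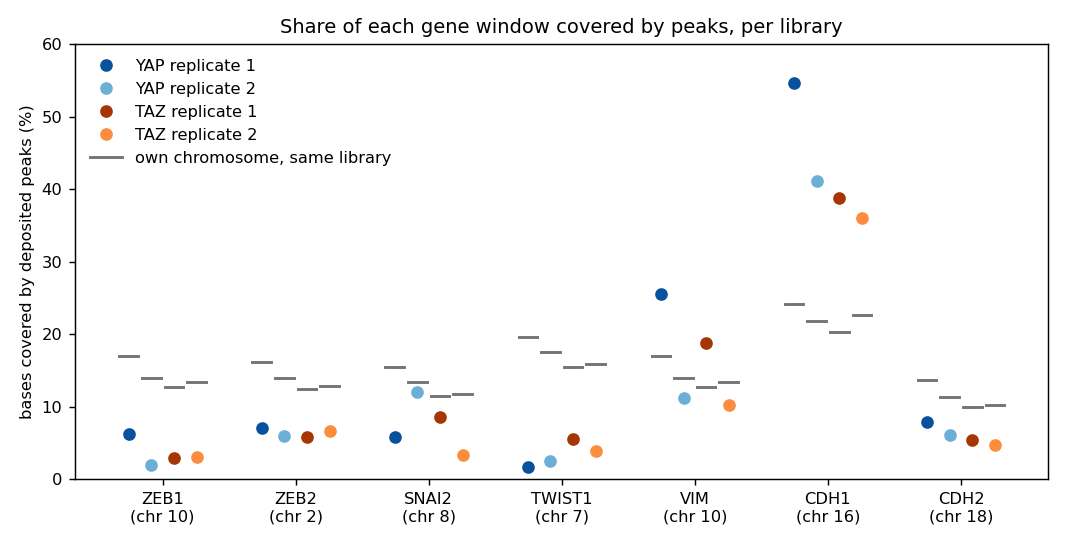
Percentage of the bases of each gene window covered by deposited peaks (vertical axis), with a point for each of the 2 YAP and 2 TAZ libraries; the grey bars give the same percentage for the gene's whole chromosome in the same library. CDH1 lies above its chromosome in all 4 libraries, VIM in 2, and the other 5 genes lie below theirs in all 4.

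ZEB1, a zinc-finger repressor that binds E-boxes in the CDH1 promoter, lies on chromosome 10 between 31607 and 31819 kb on the plus strand, and its window measured 252 kb. Peaks covered 6.29% and 2.05% of the window in the YAP libraries, against 2.99% and 3.08% in the TAZ libraries. These shares were well under those of the chromosome, which were 17.0% and 14.0% for YAP against 12.7% and 13.4% for TAZ. The YAP libraries lay on both sides of the TAZ libraries. The means, 4.17% for YAP against 3.03% for TAZ, differed by 1.13 percentage points (exact permutation p = 1), or by -0.986 without YAP replicate 1. Of the 526 adjacent windows of the same width along the chromosome that held any peak, 91.8% were at least as covered in the YAP mean and 88.6% in the TAZ mean.

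Peaks of all 4 libraries came together in 3 of the 26 ZEB1 regions. At chr10:31637145-31637570, 30.4 kb inside the gene, the authors' fold over input was 3.93 and 3.01 in the YAP libraries, against 4.85 and 4.08 in the TAZ libraries. A narrow region 67.6 kb inside, chr10:31674364-31674807, had folds of 4.62 and 3.92 for YAP against 4.52 and 2.77 for TAZ. The third, 7.4 kb upstream at chr10:31597390-31601885, was wide, and its folds were 2.91 and 3.26 for YAP against 3.43 and 2.54 for TAZ. Wherever a library had several peaks in a region, the fold is that of its best-ranked peak, and folds serve here only to describe peaks within a list.

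At the start of ZEB1, taken as the 5′ end of its span to the nearest kilobase, peaks lay within 2 kb in YAP replicate 2 and in both TAZ libraries. The YAP peak was small, 382 bp wide with a fold of 2.42, and only its outermost bases came within 2 kb. Those of TAZ were 1324 and 1667 bp wide, with folds of 2.95 and 2.59. Further inside the gene, 3 of the 26 ZEB1 regions had peaks of both YAP libraries and none of TAZ, against 6.87% of all regions in the lists. Among them was chr10:31716458-31719007, where the folds were 3.73 and 3.22. The reverse pattern was seen in 1 of the 26, against 1.44% of all regions, at chr10:31652632-31653552, with TAZ folds of 2.86 and 2.96.

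ZEB2, the paralogue of ZEB1 with a like role in repressing E-cadherin, lies on chromosome 2 between 145141 and 145278 kb on the minus strand. Its 177 kb window was covered over 7.05% and 6.01% of its bases in the YAP libraries, against 5.90% and 6.64% in the TAZ libraries. All 4 values were below the chromosome's 16.2% and 14.0% for YAP against 12.4% and 12.9% for TAZ. The difference of the means was 0.257 percentage points, from 6.53% for YAP against 6.27% for TAZ (exact permutation p = 0.667). Without YAP replicate 1 it was -0.264, and without TAZ replicate 1 it was -0.110. Of the 1352 adjacent windows of the same width, 76.3% were at least as covered in the YAP mean and 56.9% in the TAZ mean. Peaks of all 4 libraries were found in 11 of the 23 regions, or 47.8%, against 39.2% of all regions in the lists, and 6 of the 11 lay inside the gene, 3 upstream and 2 downstream.

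ZEB2 held most of the strong peaks of the 7 genes. Strong peaks were defined as the 20000 with the highest −log10 q in each library, which are 5.10% and 5.66% of the YAP lists and 6.0% and 6.44% of the TAZ lists. In the ZEB2 window 6 of 20 and 4 of 17 YAP peaks were strong, and 6 of 18 and 3 of 15 TAZ peaks. That is 30.0% and 23.5% for YAP against 33.3% and 20% for TAZ. The other 6 windows together held 0 and 1 strong peaks in the YAP libraries, against 4 and 1 in the TAZ libraries. A region with a strong peak of at least 1 library was found 15 times among the 136 regions of the 7 genes, where the background is 13.4% of all regions. ZEB2 had 9 of them, CDH2 had 4 and ZEB1 had 2, and SNAI2, TWIST1, VIM and CDH1 had 0.

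The ZEB2 regions ran from upstream to downstream of the gene. At chr2:145221075-145221588, 56.7 kb inside the gene, the folds were 3.95 and 3.59 in the YAP libraries, against 4.31 and 3.71 in the TAZ libraries, and the peaks of YAP replicate 1 and of both TAZ libraries were strong. At chr2:145286156-145287077, 8.6 kb upstream of the start, they were 3.80 and 4.27 for YAP against 4.90 and 3.28 for TAZ, strong in both YAP libraries and in TAZ replicate 1. A region 144.7 kb from the start, beyond the 3′ end at chr2:145132859-145133654, had folds of 3.43 and 4.72 for YAP against 4.02 and 4.13 for TAZ. It was strong in YAP replicate 2 and both TAZ libraries. These regions were picked among those with peaks of all 4 libraries, so peaks of both antibodies were present by selection. They were also picked by the lowest sum of ranks by −log10 q, which defines strong peaks, so their strength was favoured by selection too. No region of any of the 7 genes was strong in all 4 libraries, against a background of 0.176% of all regions.

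The count of strong ZEB2 peaks depended on the ranking. When the 20000 peaks of each library were chosen by fold, ZEB2 held 2 and 3 strong peaks for YAP against 4 and 1 for TAZ, 10 in place of 19. By the same ranking ZEB1 held 4 over the 4 libraries and CDH2 5. At a like fold (within 0.05), the −log10 q of ZEB2 peaks exceeded the median of the same list in 20 of 20 and 16 of 17 YAP peaks and in 18 of 18 and 15 of 15 TAZ peaks. The median ratio was 1.33 and 1.23 for YAP against 1.24 and 1.22 for TAZ, whereas for the other 6 genes it lay between 0.943 and 1.11. What sets this difference was not tested. No peak of any library came within 2 kb of the ZEB2 start. The nearest region inside the gene, with peaks of all 4 libraries, began beyond that distance, as the map of the gene starts shows.

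**Figure D2:**
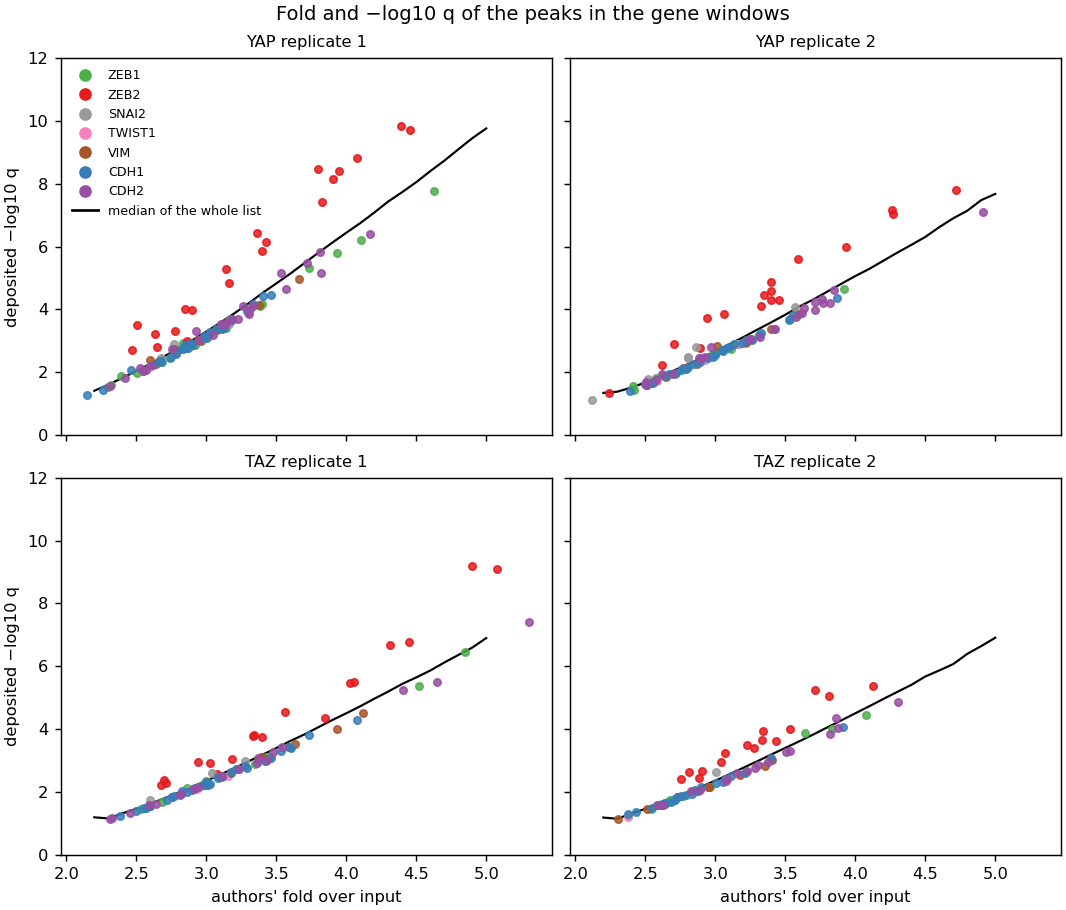
The −log10 q (vertical axis) against the authors' fold over input (horizontal axis) of every peak in the 7 gene windows, with a panel for each library; the black line is the median −log10 q of the whole list at that fold. Nearly all ZEB2 peaks lie above the line in the 4 libraries (20 of 20, 16 of 17, 18 of 18 and 15 of 15), and those of ZEB1, TWIST1, VIM, CDH1 and CDH2 lie mostly on or just under it.

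TWIST1, a basic helix-loop-helix factor, is the smallest member, on chromosome 7 between 19155 and 19158 kb on the minus strand. Its 43 kb window was covered over 1.66% and 2.48% of its bases in the YAP libraries, against 5.59% and 3.90% in the TAZ libraries. Both TAZ values were above both YAP values, and TWIST1 was the only member with a higher mean for TAZ (2.07% for YAP against 4.74% for TAZ). The difference of -2.67 percentage points had an exact permutation p of 0.33, the smallest possible here, and 0.778 after Benjamini-Hochberg adjustment over the 7 genes. It turned to 1.07 when only peaks with a −log10 q of at least 2 were kept, and to 0.190 with flanks of 50 kb. The chromosome was covered over 19.7% and 17.5% in the YAP libraries, against 15.5% and 16.0% in the TAZ libraries, all above the window. Of the 3611 adjacent windows of the same width, 92.8% were at least as covered in the YAP mean and 61.7% in the TAZ mean.

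The TAZ peaks of TWIST1 sat on the gene. They lay at chr7:19156042-19157935 in replicate 1 and chr7:19156020-19157696 in replicate 2, and covered 63.1% and 55.9% of the bases of the TWIST1 span. Neither YAP library had a peak there, at 0 bases of the span. Both TAZ peaks were among the weakest of their lists: the folds were 2.56 and 2.37, and the −log10 q values 1.49 and 1.21, where the lists end at 1.01 and 1.00. They ranked 309342 of 333505 and 301673 of 310657 by −log10 q. YAP had a region of its own 14.6 kb from the start beyond the 3′ end, chr7:19143259-19143635, with folds of 3.30 and 2.92. None of the 5 TWIST1 regions had peaks of all 4 libraries.

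SNAI2 encodes Slug, another repressor of E-cadherin. It lies on chromosome 8 between 49830 and 49835 kb on the minus strand, in a window of 45 kb. Peaks covered 5.91% and 12.1% of the window in the YAP libraries, against 8.65% and 3.36% in the TAZ libraries. Both groups spread widely and overlapped, with means of 8.99% ± 4.4 for YAP against 6.0% ± 3.7 for TAZ (SD, n = 2 each) and an exact permutation p of 0.667. The difference of 2.98 percentage points became -0.0933 without YAP replicate 2 and -1.83 once the lists were shortened to the length of the shortest. Every library lay below its chromosome, at 15.5% and 13.4% for YAP against 11.5% and 11.8% for TAZ, but close to the middle of the chromosome's windows. Of 3153 adjacent windows of the same width, 56.5% were at least as covered in the YAP mean and 56.1% in the TAZ mean.

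Of the 9 SNAI2 regions, 6 came from a single library. The only one with peaks of all 4 libraries lay 24.9 kb from the start, beyond the 3′ end, at chr8:49808100-49812023, with folds of 3.16 and 2.86 in the YAP libraries, against 2.92 and 3.01 in the TAZ libraries. Near the start, only TAZ replicate 1 had a peak, 324 bp wide with a fold of 3.04. Peaks of both YAP libraries without TAZ were found at chr8:49820370-49820751, with folds of 2.77 and 3.57.

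VIM encodes vimentin, the intermediate filament protein that marks mesenchymal cells. It lies on chromosome 10 between 17270 and 17280 kb on the plus strand. Peaks covered 25.5% and 11.2% of its 50 kb window in the YAP libraries, against 18.9% and 10.3% in the TAZ libraries. In both antibodies replicate 1 lay above the chromosome (17.0% for YAP against 12.7% for TAZ) and replicate 2 below it (14.0% for YAP against 13.4% for TAZ). The means were 18.4% ± 10.1 for YAP against 14.6% ± 6.1 for TAZ (SD, n = 2 each). Their difference of 3.80 percentage points was smaller than either SD (exact permutation p = 0.667), and it was -3.34 without YAP replicate 1 and -0.493 without TAZ replicate 2. Of the 2603 adjacent windows of the same width, 28.5% were at least as covered in the YAP mean and 30.4% in the TAZ mean.

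The start of VIM was bare in the YAP libraries, whose nearest peaks lay upstream and inside the gene. TAZ replicate 1 had a peak at chr10:17271269-17272158, where the fold was 3.43 and the −log10 q 3.06. TAZ replicate 2 had one at chr10:17271231-17272042, where the fold was 2.64 and the −log10 q 1.63. Peaks of all 4 libraries met 3.3 kb upstream, at chr10:17266483-17266964, with folds of 3.66 and 2.87 for YAP against 4.12 and 3.18 for TAZ. They met again 8.4 kb upstream, at chr10:17260673-17262440, with folds of 2.94 and 3.40 for YAP against 3.39 and 3.36 for TAZ. In all, 4 of the 12 VIM regions had peaks of the 4 libraries, 2 upstream and 2 downstream.

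CDH2 encodes N-cadherin, the cadherin that replaces E-cadherin on mesenchymal cells, and lies on chromosome 18 between 25530 and 25758 kb on the minus strand. Its 268 kb window, the widest, was covered over 7.94% and 6.15% of its bases in the YAP libraries, against 5.38% and 4.74% in the TAZ libraries. Both YAP values exceeded both TAZ values, with means of 7.04% and 5.06% and a difference of 1.98 percentage points (exact permutation p = 0.33, adjusted 0.778). Without YAP replicate 1 the difference was 1.09. Chromosome 18 as a whole showed the same order, at 13.7% and 11.3% for YAP against 10.0% and 10.3% for TAZ. Of the 280 adjacent windows of the same width, 58.2% were at least as covered in the YAP mean and 60.7% in the TAZ mean.

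All 4 libraries had a peak at the CDH2 start, where they merged into chr18:25755340-25758296. The best-ranked peaks in it had folds of 2.57 and 3.82 in the YAP libraries, against 4.65 and 3.23 in the TAZ libraries. In TAZ replicate 1 that was a strong peak just outside the 2 kb limit, beside a weaker one of fold 2.59 on the start itself. Inside the gene, 83 kb from the start, chr18:25674149-25675897 had more even folds, of 3.82 and 3.63 for YAP against 3.54 and 3.50 for TAZ. Another region 18.2 kb inside, chr18:25739562-25739986, had folds of 3.30 and 3.72 for YAP against 3.43 and 3.16 for TAZ. Peaks of both YAP libraries and none of TAZ were found in 4 of the 31 CDH2 regions, against 6.87% of all regions in the lists. At chr18:25545610-25546035, 212.2 kb from the start, the folds were 2.95 and 4.91, the second from a strong peak.

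**Figure D3:**
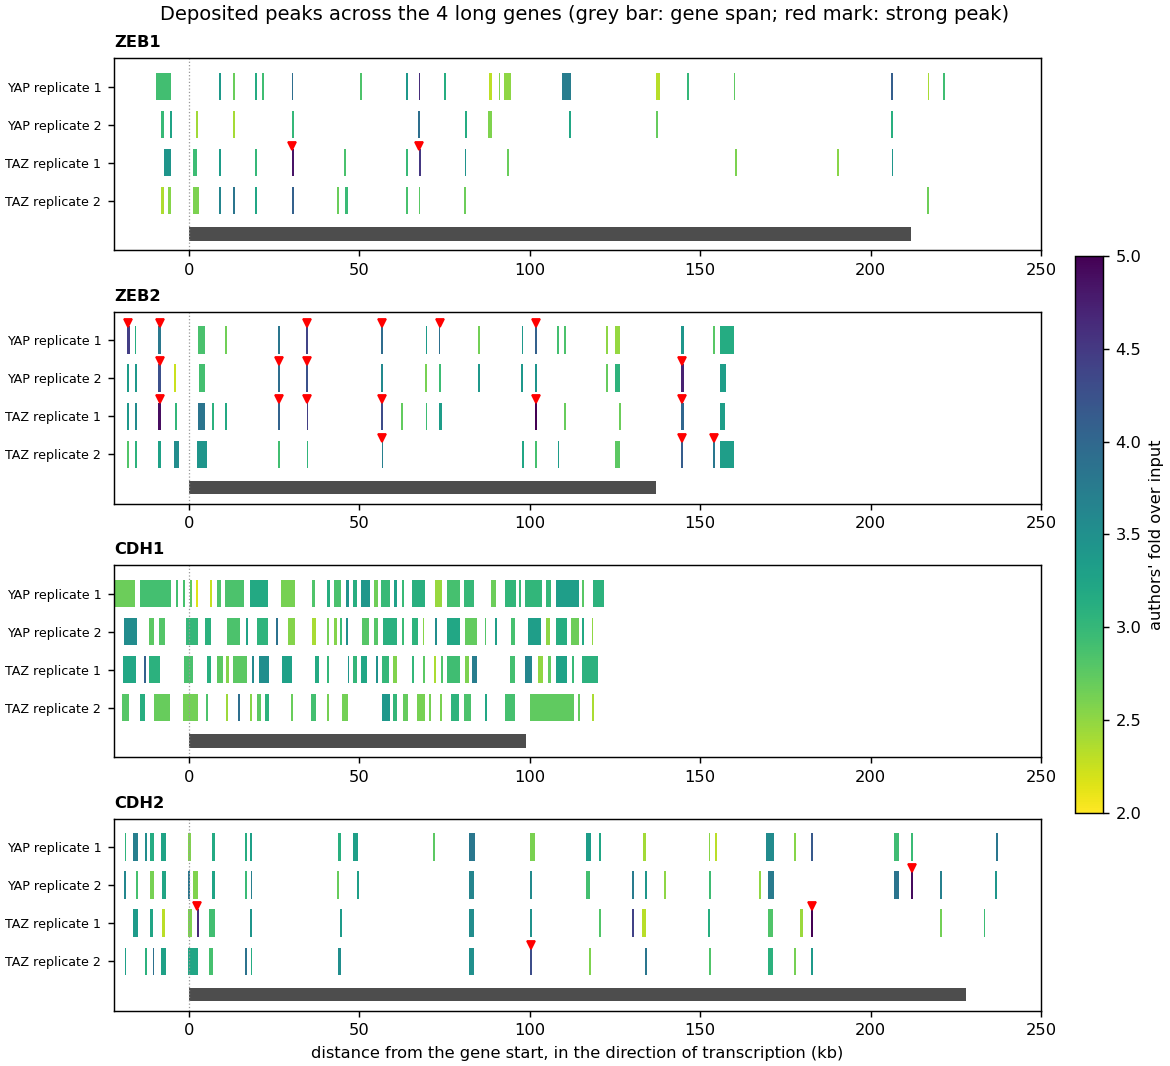
Peaks of each library across the windows of ZEB1, ZEB2, CDH1 and CDH2, by distance from the gene start in the direction of transcription (kb); colour gives the authors' fold over input (values over 5 take the darkest colour), red marks are strong peaks and the grey bar is the gene span. ZEB2 and ZEB1 both show narrow peaks (median widths per library of 410 to 478 bp and 306 to 406 bp). ZEB2 has 19 strong ones over the 4 libraries (10 when chosen by fold), and CDH1 has wide peaks without a strong one.

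CDH1 encodes E-cadherin, the junction protein that epithelial cells lose in the transition, and lies on chromosome 16 between 68771 and 68870 kb on the plus strand. Its 139 kb window was covered over 54.7% and 41.1% in the YAP libraries, against 38.8% and 36.0% in the TAZ libraries. The chromosome, itself densely covered, stood at 24.1% and 21.9% for YAP against 20.3% and 22.6% for TAZ. The window, flanks included, thus held 1.59 to 2.27 times the share of its chromosome. Over the CDH1 span alone the share was lower, at 48.8% and 38.2% for YAP against 34.5% and 26.4% for TAZ. Both flanks were more covered than the span in all 4 libraries. The means were 47.9% ± 9.5 for YAP against 37.4% ± 2.0 for TAZ (SD, n = 2 each). They differed by 10.5 percentage points, with an exact permutation p of 0.33 and an adjusted p of 0.778. The difference was 3.74 without YAP replicate 1, 17.2 without YAP replicate 2, 3.70 in equally long lists and 23.7 with a −log10 q of at least 2. Such coverage was not rare on chromosome 16: of the 569 adjacent windows of the same width, 19.3% were at least as covered in the YAP mean and 26.9% in the TAZ mean.

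The CDH1 peaks were wide, and none was strong. In the YAP libraries the peaks of the window had a median width of 1417 and 1335 bp, where the whole lists had 613 and 629 bp. In the TAZ libraries it was 1312 and 1067 bp, where the whole lists had 638 and 717 bp. Only 1 peak of the window in the 4 lists, in TAZ replicate 1, reached a fold of 4. All 4 libraries had peaks in 18 of the 30 merged regions, or 60%, against 39.2% of all regions in the lists. Of the 18, 14 lay inside the gene, and the median width of the 18 was 4026 bp. Peaks were joined wherever they overlapped by 1 bp, so a wide region can hold peaks that do not overlap each other. The part of dense coverage in this count was not tested. The widest merged region, chr16:68869541-68885372, ran over 15832 bp from the 3′ end onwards. It was joined from 3 and 4 peaks of the YAP libraries and 5 and 2 of the TAZ libraries. The widest single peak of the window measured 12994 bp, in TAZ replicate 2. The 20 kb flanks of CDH1 also hold parts of the neighbouring genes CDH3 and TANGO6, as RefSeq names them in GRCh38.p14.

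At the CDH1 start the peaks of the 4 libraries merged into chr16:68769212-68773785. The best-ranked ones had folds of 2.87 and 3.00 in the YAP libraries, against 2.86 and 2.64 in the TAZ libraries. At chr16:68816053-68817896, 46 kb inside the gene, the folds were 3.46 and 3.53 for YAP against 3.42 and 2.64 for TAZ. They were higher than at the start in every library but TAZ replicate 2, where they were alike. Peaks of both YAP libraries without TAZ were seen in 2 of the 30 CDH1 regions, against 6.87% of all regions in the lists. Both lay inside the gene, among them chr16:68859713-68861179 with folds of 2.68 and 3.31.

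The 7 starts were then set side by side. Peaks of all 4 libraries lay within 2 kb of 2 of the 7 starts, those of CDH1 and CDH2, where 33.3% of the 737032 adjacent 4 kb windows of the genome are called by the same rule. Both YAP libraries had a peak at the same 2 starts, against 46.3% of windows. Both TAZ libraries had one at 5 of the 7 starts, those of ZEB1, TWIST1, VIM, CDH1 and CDH2, against 37.6% of windows. Both TAZ libraries and neither YAP library had one at TWIST1 and VIM, 2 of 7 against 0.901% of windows. The reverse, both YAP libraries and neither TAZ library, was seen at 0 of 7 against 3.76%. The background is of windows anywhere in the genome and not of gene starts, so it is no measure of what other starts show. Over 7 starts these are counts without a test.

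Of the 4 TAZ peaks at the TWIST1 and VIM starts, 3 lay low in their lists, and that of VIM in TAZ replicate 1 ranked 136682 of 333505, with a fold above the list's median of 3.16. With a −log10 q of at least 2 or a fold of at least 4 in every list, no start was left with both TAZ libraries and neither YAP library, and none with all 4. Within 1 kb or 5 kb of the start, TWIST1 was left and VIM was not. After the lists were shortened to the length of the shortest, ZEB1 joined TWIST1 and VIM.

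**Figure D4:**
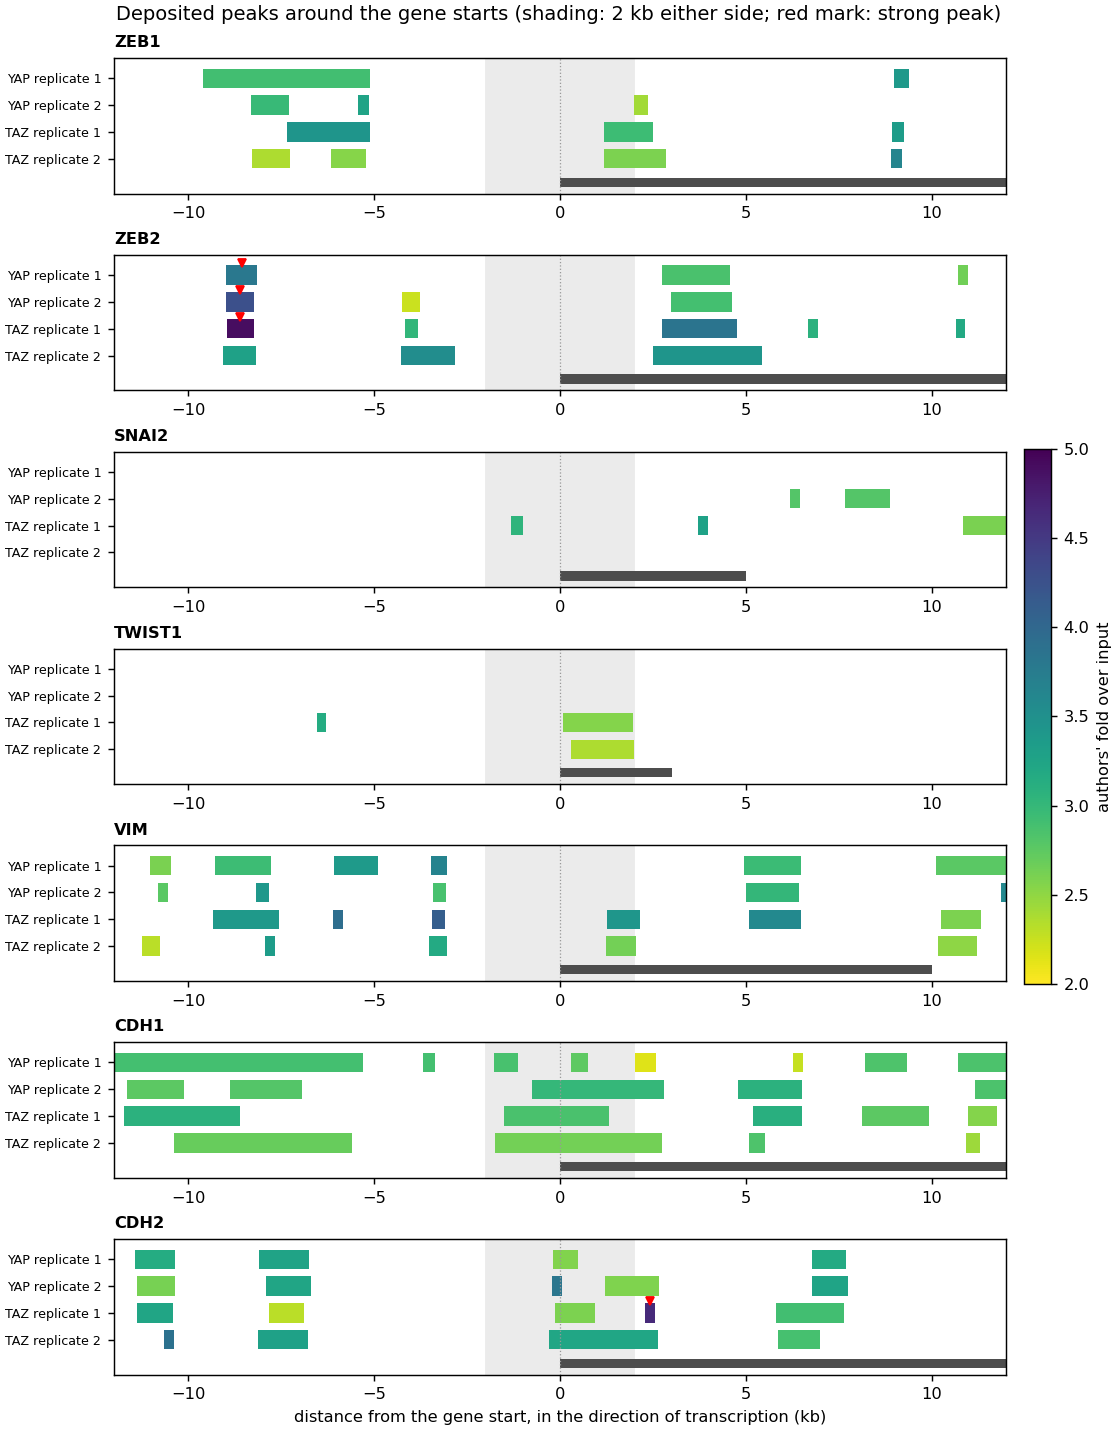
Peaks of each library around the 7 gene starts, by distance from the start in the direction of transcription (kb); grey shading is 2 kb either side, the dark bar is the gene span, colour is the authors' fold over input and red marks are strong peaks. In the shaded band TWIST1 and VIM have TAZ peaks in both libraries and no YAP peak, CDH1 and CDH2 have peaks in all 4 libraries, and ZEB2 has none.

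Counted over all 136 regions, 48 had peaks of all 4 libraries, or 35.3%, against 39.2% of all regions in the lists. The peak names in all 4 lists give a common input, and the part of shared input reads in these overlaps was not tested. The share ran from 0 of 5 for TWIST1, 1 of 9 for SNAI2 and 3 of 26 for ZEB1 to 4 of 12 for VIM, 11 of 31 for CDH2, 11 of 23 for ZEB2 and 18 of 30 for CDH1. A further 23 regions had peaks of 3 libraries, 18 of a YAP and a TAZ library, and 31 of a single library. Peaks of both YAP libraries and none of TAZ were found in 13 of 136 regions, against 6.87% of all regions, and of both TAZ libraries and none of YAP in 3 of 136, against 1.44%. The YAP lists are also the longer ones, and the part of list length in these counts was not tested. The 3 TAZ regions were those at the TWIST1 and VIM starts and the one inside ZEB1.

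**Figure D5:**
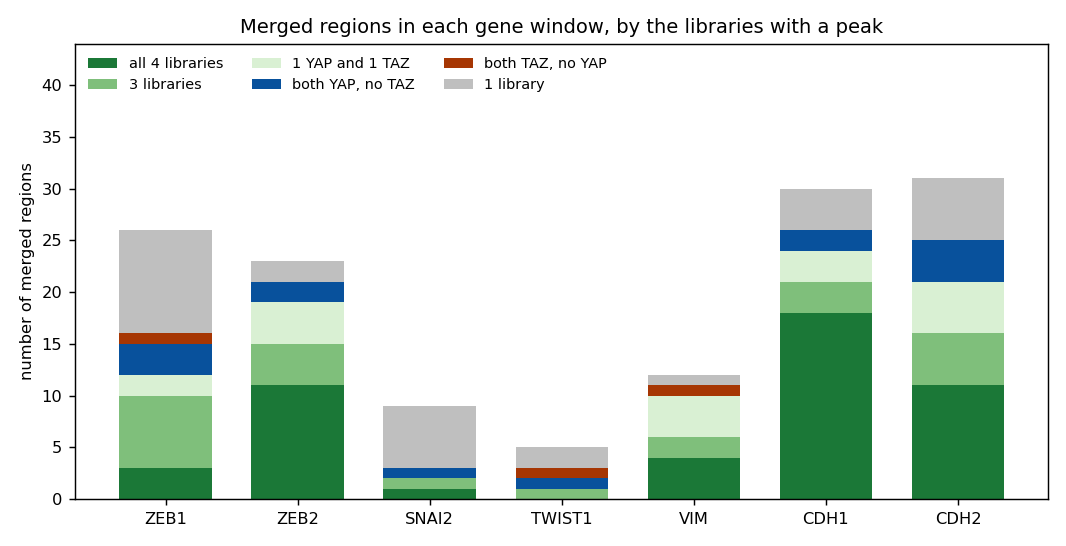
Number of merged regions in each gene window (bar height), divided by the libraries with a peak in the region. CDH1 has 18 of 30 regions with peaks of all 4 libraries and TWIST1 0 of 5; regions with peaks of both TAZ libraries and no YAP library occur once each in ZEB1, TWIST1 and VIM.

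Across the 7 genes, the order of the covered share in the YAP means was CDH1, VIM, SNAI2, CDH2, ZEB2, ZEB1 and TWIST1, and in the TAZ means CDH1, VIM, ZEB2, SNAI2, CDH2, TWIST1 and ZEB1. The CDH1 window stood above every other window in each of the 4 libraries. VIM came second in 3 of them, as SNAI2 passed it in YAP replicate 2, and the other 5 genes overlapped. Over the spans alone, CDH1 stood first in both YAP libraries and TWIST1 in both TAZ libraries. In the TAZ libraries the TWIST1 span was covered over 63.1% and 55.9%, against 34.5% and 26.4% for the CDH1 span. The whole windows of the 4 transcription factor genes and CDH2 were less covered than their chromosomes in all 4 libraries. The upstream flank of CDH2 alone was above its chromosome in all 4, at 25.0% and 17.3% for YAP against 17.6% and 12.5% for TAZ. That of ZEB1 was above only in YAP replicate 1, that of ZEB2 only in TAZ replicate 2, and those of SNAI2 and TWIST1 in no library. Against adjacent windows of the same width, however, the windows of SNAI2 and CDH2, and in the TAZ mean ZEB2 and TWIST1, lay near the middle, with 56.1% to 61.7% of windows at least as covered. Each of the 6 genes whose libraries all lay on the same side of the chromosome had an exact sign-flip p of 0.125, or 0.146 after adjustment over the 7 genes. The smallest p that 4 libraries allow is 0.125, so no gene could pass a threshold of 0.05. The sign-flip test asks only whether the libraries agree, and not how a window compares with others of its chromosome.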

How the data were processed

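H1299 libraries were grouped by their labels as YAP, TAZ or input. Nothing in the labels says that replicates came from separate cultures, so spreads and p-values are between libraries and may be technical. The submitters' processing notes name MACS2, SAMtools, Bowtie2 and cutadapt, with hg19 as the build; versions are not given in the sources used here. Broad peaks were deposited for each library separately. The deposited fold is the authors' ratio of ChIP to input. The deposited −log10 q of a peak ranks it, with the deposited −log10 p only for ties. Peak names in all 4 lists give a common input while list names point to different inputs, so which input was used is unsettled. The lists hold no read totals, so depth is unknown and no counting interval can be given.

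Peaks on chromosomes 1 to 22 and X were intersected with the 7 gene windows in Python 3.11.15 (numpy 2.4.6, pandas 2.3.3, matplotlib 3.10.9), after the interval code was tested on simulated intervals. Covered share is the percentage of bases under peaks. Adjacent windows of the same width as a gene window were left out where no library had a peak. The 4 kb background windows were kept whether or not they held a peak. Groups were compared by exact permutation over libraries, with Benjamini-Hochberg adjustment over the 7 genes. Gene starts are known to the kilobase only, and strand was taken from RefSeq or textbooks. All 7 genes are named. Regions named per gene are the one over the start, up to 3 with peaks of all 4 libraries and up to 2 of a single antibody, by lowest rank sum. Other transition genes were not analysed here, because no hg19 annotation was used. Members, lists and rules were chosen with earlier results of these data known. The counts of TAZ starts and of strong ZEB2 peaks, with their alternatives, were added after seeing the data.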

Additional observations from a re-analysis of the deposited data

How the results depend on the processing

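The YAP minus TAZ difference over the 7 windows, 2.60 percentage points, was -0.0855 with a fold of at least 4 and ran from 0.540 to 4.66 with each library left out. It was positive under the other alternatives, with p at or above 0.33 in all. For single genes, that fold limit gave -0.0950 for CDH1, -0.0935 for CDH2, -0.372 for VIM, -0.0573 for ZEB1 and -0.0675 for ZEB2, and no peak of SNAI2 or TWIST1 was left. It was -1.83 for SNAI2 and -0.0808 for ZEB1 in shortened lists, -2.73 for SNAI2 and -0.725 for VIM over the span alone, 1.07 for TWIST1 at a −log10 q of at least 2 and 0.190 with 50 kb flanks. Left-out libraries gave 3.74 to 17.2 for CDH1, 1.09 to 2.88 for CDH2, -3.52 to -1.83 for TWIST1, -0.0933 to 6.06 for SNAI2, -3.34 to 10.9 for VIM, -0.986 to 3.26 for ZEB1 and -0.264 to 0.778 for ZEB2. Over the 7 genes together, the sign held in 58 of 75 alternatives and turned in 17. The 58 include the replicate block of each gene, which repeats the main difference and could not turn. Regions with peaks of all 4 libraries numbered 27 in place of 48 at a −log10 q of at least 2, 0 at a fold of at least 4 and 31 over the spans alone. Starts with all 4 libraries numbered 0, 0 and 1 (CDH1) in place of 2 at that −log10 q, that fold and in shortened lists, and 4 (also ZEB2 and VIM) within 5 kb. Starts of both TAZ libraries and no YAP library numbered 0 and 0 in place of 2 at those 2 thresholds, and 1 within 1 kb and within 5 kb. Without YAP replicate 2 they included ZEB1, and without TAZ replicate 2 SNAI2. Strong ZEB2 peaks numbered 10 in place of 19 when chosen by fold. The cause of these shifts was not tested.

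The labels do not say that a replicate number marks a shared batch. Deviations of same-numbered libraries correlated at r = 0.380 over 29471 windows of 100 kb, and the difference with the replicate number as a block was 2.60 with an exact p of 0.5, the smallest that 2 pairs allow. Unknown depth limits any reading of peak number, width or −log10 q between libraries.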
